A study of Mus musculus with 20 samples.

Results

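Astrocytes, the star-shaped glial cells of the brain, are described here through 9 genes that are commonly used to mark them or to follow their work at synapses: the glutamate transporters Slc1a2 and Slc1a3, glutamine synthetase Glul, the enzymes Aldoc and Aldh1l1, the water channel Aqp4, the gap junction protein Gja1, the filament protein Gfap and the calcium-binding protein S100b. They were picked by symbol, and all 9 were found among the 13256 genes listed for each library and passed the filter on low values. RNA had been sequenced from hippocampus of female Fmr1 KO mice, female C57 (WT) mice, male Fmr1 KO mice and male C57 (WT) mice, with 5 libraries in each of the 4 groups and 20 in all. Fmr1 encodes FMRP, an RNA-binding protein whose loss in people causes fragile X syndrome. The titles call the mutant mice KO and a second label calls them a knockdown. The allele, the age of the mice, and whether libraries of a group stem from different animals are not stated in the labels, so p-values measure the spread between libraries, which may in part be technical.

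Astrocytes take glutamate up from around synapses, mainly through the transporters that Slc1a2 (GLT-1) and Slc1a3 (GLAST) encode. Glutamine synthetase then joins the glutamate with ammonia to form glutamine, which neurons take back and turn into glutamate again. Astrocytes also carry water channels on the processes that surround blood vessels, are coupled to each other by gap junctions, and raise their GFAP content when the tissue is injured.

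All values are FPKM, fragments counted relative to the length of the transcript and to all mapped fragments, as the authors deposited them, so levels of different genes are on a scale per length. Differences are on the log2(FPKM + 1) scale with KO minus WT, were estimated with limma over 13174 tested genes, and count as passed where the adjusted p (Benjamini-Hochberg) was under 0.05. Fmr1 itself averaged 3.32 ± 0.327 FPKM in female KO libraries and 10.6 ± 0.558 FPKM in female WT libraries (SD, n = 5 each). In males it averaged 3.56 ± 0.187 FPKM in KO and 11.4 ± 0.527 FPKM in WT (SD, n = 5 each). The KO level was 31.2% of WT in females and 31.3% in males, with an exact two-sided permutation p of 0.0079 in each sex, the smallest that the splits of 5 against 5 allow. Some libraries stood apart in genes of neighbouring tissue. Ttr, a choroid plexus gene, exceeded 500 FPKM in 4 libraries (female KO replicates 4 and 5, female WT replicate 4, male KO replicate 2). Prl, a pituitary hormone gene, exceeded 4 FPKM in 3 libraries (female KO replicates 2, 3 and 4). Results that passed between KO and WT are therefore also given, or counted, without these libraries. Over all tested genes the calls in females numbered 438 with all libraries, 76 without the 4 Ttr-rich and 8 without the 3 Prl-rich ones. The depth of the libraries is unknown, because the FPKM do not fall on whole-read steps, and no counting interval was computed.

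The windows around the start sites of Glul and Slc1a3 are printed because Glul was the only one of the 9 genes that passed in a KO comparison, while Slc1a3 had the smallest KO difference over both sexes. Both come from RefSeq on the build GRCm38.p6 (mm10) and run from 250 bases before to 50 bases after the start. The Glul window is chr1:153899679-153899978 on the plus strand and the Slc1a3 window is chr15:8710758-8711057 on the minus strand. Capitals mark matches on either strand to the motifs named after the sequences.
Glul: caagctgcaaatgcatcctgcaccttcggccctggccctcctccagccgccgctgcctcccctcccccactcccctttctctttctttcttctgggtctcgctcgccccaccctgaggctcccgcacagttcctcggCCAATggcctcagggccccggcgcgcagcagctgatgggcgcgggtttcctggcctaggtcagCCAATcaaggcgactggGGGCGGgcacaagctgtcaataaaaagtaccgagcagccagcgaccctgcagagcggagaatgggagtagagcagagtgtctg
Slc1a3: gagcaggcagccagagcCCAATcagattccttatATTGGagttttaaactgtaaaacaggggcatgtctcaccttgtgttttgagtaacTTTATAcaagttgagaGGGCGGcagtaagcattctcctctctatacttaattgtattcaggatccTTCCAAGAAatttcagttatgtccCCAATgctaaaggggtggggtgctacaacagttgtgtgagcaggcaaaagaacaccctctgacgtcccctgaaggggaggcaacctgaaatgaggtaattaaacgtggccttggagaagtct
The motifs searched were the TATA box TATAAA, found in 13.6% of 32817 RefSeq windows of this length, the CCAAT box CCAAT in 37.4%, the GC box GGGCGG in 35.6% and the STAT-type palindrome TTCNNNGAA in 8.29%. With the first base of a match counted from the start site, Glul held CCAAT boxes at -113 and -50 and a GC box at -33. Slc1a3 held CCAAT boxes at -233, -216 and -72, a TATA box at -161, a GC box at -145 and a palindrome at -96. No matches overlapped in these windows. GC content was 64.3% in the Glul window and 45.3% in the Slc1a3 window, against a median of 52.7% over all windows. RefSeq gave windows for 8 of the 9 genes. The one for Slc1a2, from 102706188 to 102706487 on chromosome 2, lies inside the deposited span of that gene rather than at its end, and is not printed. The windows of Gfap and Aldh1l1 and a further window of Aldoc also lie inside the deposited spans of those genes.

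The 9 genes spanned a wide range of levels in hippocampus. Over all 20 libraries Glul averaged 408 FPKM, above 99.8% of tested genes, followed by Slc1a2 with 218 FPKM and Aldoc with 165 FPKM. S100b, Gfap and Slc1a3 averaged 74.0, 73.4 and 73.3 FPKM, and their ranges overlapped. Aqp4 averaged 36 FPKM, Gja1 23.7 FPKM and Aldh1l1 7.82 FPKM. In bulk tissue, fewer cells of a type and less RNA per cell cannot be told apart, and none of these levels says which cells held the RNA. The coefficient of variation over the 20 libraries ran from 4.9% for Slc1a3 to 12.4% for Gja1, with a median of 6.5%. The median over the 7010 tested genes that averaged 5 to 500 FPKM was 7.75%.

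**Figure D1:**
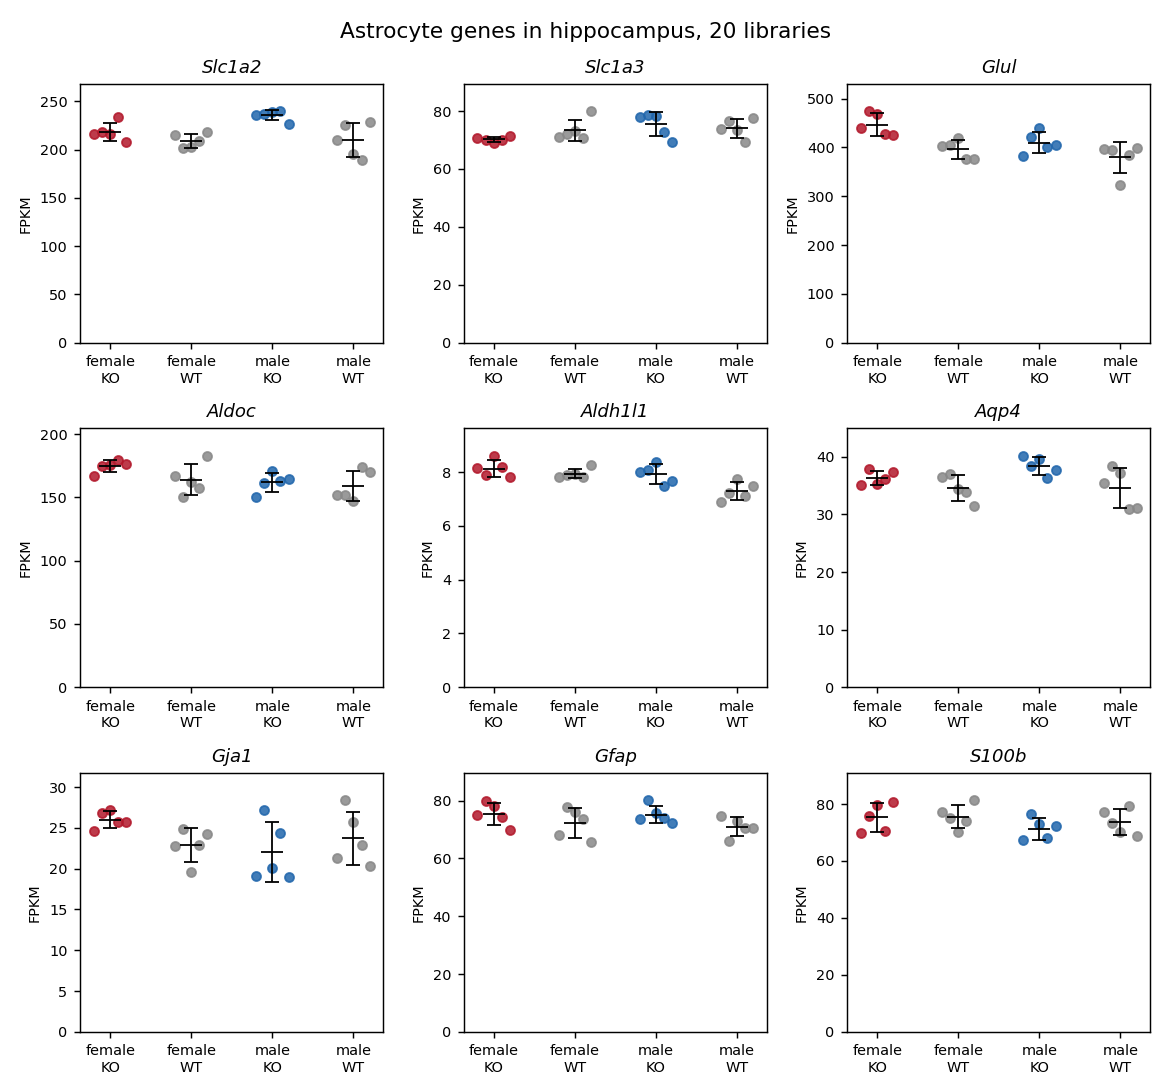
FPKM of the 9 genes in each of the 20 libraries, with a panel per gene, the 4 groups on the horizontal axis, points for libraries and bars for the group mean and SD (n = 5). Glul is the one panel in which all 5 female KO points (425.5 to 473.9 FPKM) lie above all 5 female WT points (375.7 to 419.3 FPKM), and Gja1 shows the widest relative scatter.

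When the 4 group means of each gene were put in order, neighbouring groups had overlapping ranges in all 27 cases. In 23 of them the means were within the larger SD of the pair. The 4 steps beyond 1 SD were Slc1a2 and Aqp4 in male KO above female KO, Glul in female KO above male KO, and Aldh1l1 in male KO above male WT. The highest group mean was at most 1.18 times the lowest, for Glul and for Gja1.

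Glul, which encodes the glutamine synthetase that turns transported glutamate into glutamine, was higher in KO over both sexes. Female KO libraries had 440.8, 473.9, 467.7, 427.4 and 425.5 FPKM, against 403.3, 404.4, 419.3, 375.7 and 376.4 FPKM in female WT libraries. Male KO libraries had 382.0, 420.8, 439.3, 401.4 and 405.7 FPKM, against 397.1, 395.1, 323.2, 383.8 and 399.9 FPKM in male WT libraries. Every female KO library was above every female WT library, a pattern seen in 3.17% of tested genes. In males, 4 of 5 KO libraries exceeded all WT libraries and the ranges overlapped.

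Over both sexes Glul rose by 0.14 (SE 0.04) on the log2(FPKM + 1) scale, a fold of 1.1, with a limma adjusted p of 0.0493. It was the only one of the 9 to pass in this comparison, in which 3.22% of tested genes passed in either direction and 1.38% passed as higher. Within females the difference was 0.18 (95% interval 0.06 to 0.29, limma adjusted p = 0.0823), and within males 0.11 (95% interval -0.00 to 0.23, limma adjusted p = 0.59). Neither sex passed alone, and the interval of the difference between the sexes ran from -0.23 to 0.10. The adjusted p over both sexes became 0.121 without the 4 Ttr-rich libraries and 0.258 without the 3 Prl-rich libraries, where only 2 female KO libraries were left. The difference was 0.15 and 0.12 in those fits. In 16 of the 20 fits that left out 1 library the call was lost, with differences of 0.12 to 0.16 over all 20. Male WT replicate 3, at 323.2 FPKM, was far below the rest of its group. Without it the female difference passed (limma adjusted p = 0.0268), since all groups share 1 estimate of the spread. Glul lies on chromosome 1 from 153899944 to 153909723 (plus strand, mm10), where the gene models of Teddm2 on the opposite strand and Mir8114 on the same strand overlap it. The strand setting of the quantification is not given in the sources used here.

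Slc1a2, the gene of the main glutamate transporter of the forebrain, had its largest KO difference in males, where it did not pass. Male KO libraries had 236.2, 236.7, 238.7, 239.5 and 226.6 FPKM, against 209.6, 225.9, 195.8, 188.8 and 229.0 FPKM in male WT libraries. The KO libraries of males lay close together while the WT libraries were spread widely, and 4 of 5 KO libraries exceeded every WT library. In 0.607% of tested genes all 5 male KO libraries were above all male WT libraries, and none of the 9 was among them. Female KO libraries had 216.0, 217.8, 216.4, 233.4 and 208.2 FPKM, against 215.5, 201.9, 202.5, 208.8 and 218.5 FPKM in female WT libraries, with overlapping ranges.

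The male difference of Slc1a2 was 0.17 (95% interval 0.07 to 0.27, limma adjusted p = 0.224). Only 0.0455% of tested genes, 6 in number, passed in males, and none of the 9 astrocyte genes was among them. The female difference was 0.06 (95% interval -0.04 to 0.16, limma adjusted p = 0.5), in a comparison where 3.32% of tested genes and none of the 9 passed. Over both sexes it was 0.11 (SE 0.03, limma adjusted p = 0.0591), just outside the threshold. Under the alternatives its adjusted p ran from 0.038 to 0.315. It was 0.191 without the 4 Ttr-rich libraries, 0.315 without the 3 Prl-rich libraries and 0.218 with Ttr and Prl as covariates. It passed when a trend on GC content was removed (limma adjusted p = 0.038), without male WT replicate 2 (0.0415) and without male WT replicate 5 (0.0315). Slc1a2 spans positions 102658659 to 102790784 of chromosome 2.

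Slc1a3, the gene of the transporter GLAST, was nearly level across the groups. It had 70.7, 69.88, 68.82, 70.12 and 71.35 FPKM in female KO libraries, against 71.17, 71.96, 72.95, 70.64 and 79.88 FPKM in female WT libraries. In male KO libraries it had 77.9, 78.53, 78.45, 72.94 and 69.42 FPKM, against 73.69, 76.7, 73.48, 69.18 and 77.44 FPKM in male WT libraries. The ranges overlapped in both sexes. The difference over both sexes was -0.02, with a 95% interval of -0.08 to 0.04 and a limma adjusted p of 0.78. Slc1a3 lies on chromosome 15 from 8634124 to 8710764.

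The level of Slc1a2 relative to Slc1a3 was computed per library after the values had been seen, and is given without a test. Slc1a2 was 3.06, 3.12, 3.15, 3.33 and 2.92 times Slc1a3 in female KO libraries, against 3.03, 2.81, 2.78, 2.96 and 2.74 times in female WT libraries. In males the ratio was 3.03, 3.01, 3.04, 3.28 and 3.26 in KO libraries, against 2.84, 2.95, 2.66, 2.73 and 2.96 in WT libraries. All male KO libraries were above all male WT libraries, while in females 1 KO library fell within the WT range. How often ratios of other gene pairs separate in this way was not computed, so the separation is only a description. Neither Slc1a2 nor Slc1a3 passed in males. Group means were 3.11 ± 0.149 in female KO and 2.86 ± 0.126 in female WT, and 3.13 ± 0.134 in male KO and 2.83 ± 0.13 in male WT (SD, n = 5 each).

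**Figure D2:**
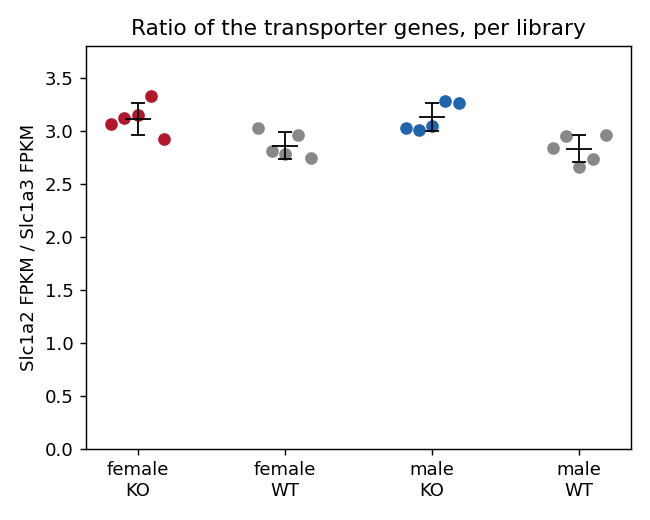
Slc1a2 FPKM divided by Slc1a3 FPKM in each library, by group, with bars for the mean and SD (n = 5). Male KO points lie at 3.01 and above and male WT points at 2.96 and below, while the female groups overlap between 2.92 and 3.03. The ratio was picked after the values had been seen, and the share of other gene pairs that separate was not computed.

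None of the other 18 genes listed for the handling of glutamate and glutamine passed in any KO comparison. The list holds the neuronal and minor glutamate transporters, glutaminases, transaminases, glutamine carriers, vesicular transporters and metabotropic receptors. Over both sexes 9 were above 0 and 9 below, with a median difference of 0.00, and the median over all tested genes was also 0.00. An unadjusted limma p under 0.05 was reached by 7 of the 18, against 18% of all tested genes. Slc38a3, which exports glutamine from astrocytes, differed by 0.14 (limma adjusted p = 0.176). Slc17a7, which loads glutamate into synaptic vesicles of excitatory neurons, differed by 0.09 (limma adjusted p = 0.17), and the neutral amino acid transporter gene Slc1a4 by 0.08 (limma adjusted p = 0.202).

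Aldoc encodes aldolase C, a glycolytic enzyme that in brain is abundant in astrocytes and in Purkinje cells. It ranged from 167 to 180 FPKM in female KO libraries and from 150 to 183 FPKM in female WT libraries. In males it ranged from 151 to 171 FPKM in KO and from 147 to 174 FPKM in WT, so the groups overlapped throughout. The difference was 0.09 in females, 0.03 in males and 0.06 over both sexes (limma adjusted p = 0.33, 0.925 and 0.395). Aldoc lies on chromosome 11 from 78322968 to 78327781, and no other gene model overlaps it. Of 23 tested genes of glycolysis, lactate and glycogen, 2 rose in females, where 1.8% of all tested genes rose. They were the glucose transporter genes Slc2a1 (0.38, limma adjusted p = 0.0429), known from the blood-brain barrier and from glia, and Slc2a3 (0.23, limma adjusted p = 0.0186), the main one of neurons. Over both sexes Slc2a3 alone passed, with 0.17 (limma adjusted p = 0.0138), where 1.38% of all tested genes rose. In males none passed, with 3 at an unadjusted limma p under 0.05, against 8.69% of all tested genes. Without the 3 Prl-rich libraries neither gene passed, with limma adjusted p of 0.444 for Slc2a1 and 0.159 for Slc2a3 in females and 0.0626 for Slc2a3 over both sexes. Without the 4 Ttr-rich libraries Slc2a3 had 0.0649 in females and 0.0235 over both sexes, and Slc2a1 passed with 0.0274.

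Aldh1l1 encodes a folate enzyme, 10-formyltetrahydrofolate dehydrogenase, that is widely used to mark astrocytes. Male KO libraries had 8.019, 8.095, 8.381, 7.488 and 7.665 FPKM, against 6.905, 7.223, 7.742, 7.124 and 7.499 FPKM in male WT libraries. Female KO libraries had 8.147, 7.875, 8.601, 8.187 and 7.824 FPKM, against 7.826, 7.898, 7.925, 7.806 and 8.249 FPKM in female WT libraries. Male WT libraries were the low group, and every one of them was below every female WT library, a pattern seen in 0.789% of tested genes. The male KO difference was 0.11 (95% interval 0.03 to 0.18, limma adjusted p = 0.392), the female one 0.03 (95% interval -0.05 to 0.11), and the one over both sexes 0.07 (limma adjusted p = 0.174). Aldh1l1 spans positions 90486427 to 90600203 of chromosome 6, where 3 other gene models, none of them typed as protein-coding, overlap it. None of the 11 tested genes of folate one-carbon metabolism passed in a KO comparison. Over both sexes 6 were above 0 and 5 below, with a median of 0.01 and none at an unadjusted limma p under 0.05.

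Aqp4 encodes the water channel of astrocyte endfeet, the processes that wrap blood vessels. Male KO libraries had 40.16, 38.45, 39.54, 36.35 and 37.7 FPKM, against 35.43, 38.39, 37.12, 31.02 and 31.05 FPKM in male WT libraries. Female KO libraries had 35.08, 37.8, 35.21, 36.07 and 37.31 FPKM, against 36.49, 36.98, 34.37, 33.94 and 31.41 FPKM in female WT libraries. The ranges overlapped in both sexes, and the lowest WT values were male replicates 4 and 5 and female replicate 5. The difference was 0.15 in males (95% interval 0.03 to 0.27, limma adjusted p = 0.431), 0.07 in females and 0.11 over both sexes (limma adjusted p = 0.143). Aqp4 lies on chromosome 18 from 15389394 to 15403684. Of the 13 tested genes that anchor water channels or build the endfoot, 1 rose in females, against 1.8% of all tested genes, and its call was lost without the Ttr-rich and without the Prl-rich libraries. None passed in males or over both sexes, where 1 and 6 had an unadjusted limma p under 0.05, against 8.69% and 18% of all tested genes. Over both sexes 8 of the 13 were above 0 and 5 below, where 50.9% of all tested genes were above 0. The potassium channel gene Kcnj10, whose product sits beside AQP4 in endfeet, differed by 0.13 over both sexes (limma adjusted p = 0.112). Dmd, another gene of the list, differed by -0.16 (limma adjusted p = 0.154).

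Gja1, which encodes connexin 43, the main gap junction protein of astrocytes, had the widest spread of the 9. Female KO libraries had 24.63, 26.77, 27.23, 25.76 and 25.67 FPKM, against 22.77, 24.91, 19.62, 22.88 and 24.29 FPKM in female WT libraries. Male KO libraries had 19.15, 27.24, 20.04, 24.41 and 19.03 FPKM, against 21.31, 28.37, 25.75, 22.95 and 20.32 FPKM in male WT libraries. In females 4 of 5 KO libraries were above every WT library, and in males 3 of 5 KO libraries were below every WT library. The difference was 0.18 in females (95% interval -0.02 to 0.38, limma adjusted p = 0.309) and -0.11 in males (95% interval -0.31 to 0.09, limma adjusted p = 0.807). The difference between those effects, male minus female, was -0.29 (95% interval -0.58 to -0.01), with a limma p of 0.0456 and a limma adjusted p of 0.488. Gja1 was the only one of the 9 with an unadjusted limma p under 0.05 there, in a comparison where 0.0455% of tested genes and none of the 9 passed. None of 12 tested genes for connexins, pannexins and partner proteins passed in a KO comparison. Over both sexes 8 of them were above 0 and 4 below, where 50.9% of all tested genes were above 0. In that comparison 3 of the 12 had an unadjusted limma p under 0.05, against 18% of all tested genes. Gjb6, which encodes connexin 30 of astrocytes, differed by 0.46 in females (limma adjusted p = 0.0654) and 0.11 in males (limma adjusted p = 0.895). Its group means were 20.4 ± 3.76 FPKM in female KO and 14.4 ± 1.21 FPKM in female WT, and 17.3 ± 4.28 FPKM in male KO and 15.7 ± 1.39 FPKM in male WT (SD, n = 5 each). Gja1 lies on chromosome 10 from 56377330 to 56402513.

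Gfap encodes the intermediate filament protein that rises in reactive astrocytes. It ranged from 69.7 to 79.8 FPKM in female KO libraries and from 65.7 to 77.7 FPKM in female WT libraries. In males it ranged from 72.3 to 80.1 FPKM in KO and from 66.1 to 74.9 FPKM in WT. The ranges overlapped, and the difference was 0.06 in females, 0.08 in males and 0.07 over both sexes (limma adjusted p = 0.489, 0.675 and 0.266). The interval over both sexes ran from 0.00 to 0.14. Gfap lies on chromosome 11 from 102887336 to 102900912. The 5 other filament genes, Vim among them, had no call and none reached an unadjusted limma p under 0.05. All 5 were above 0 in females and all 5 below 0 in males, with medians of 0.04 and -0.05.

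The lists of genes known from reactive astrocytes held calls in both sexes. Of all tested genes 3.32% passed in females, 0.0455% in males and 3.22% over both sexes, in either direction. Of the 7 tested of 12 pan-reactive genes, Serpina3n, a secreted protease inhibitor, fell by 0.43 in females (limma adjusted p = 0.00417) and by 0.49 in males (limma adjusted p = 0.00172). It averaged 16.2 ± 1.06 FPKM in female KO and 22.3 ± 2.17 FPKM in female WT, and 15.2 ± 1.49 FPKM in male KO and 21.8 ± 1.26 FPKM in male WT (SD, n = 5 each). Hspb1, a small heat shock protein gene, rose by 0.56 in females (limma adjusted p = 0.0129) and differed by -0.14 in males (limma adjusted p = 0.757). In females Serpina3n had a limma adjusted p of 0.074 without the 4 Ttr-rich and 0.105 without the 3 Prl-rich libraries, and Hspb1 had 0.0556 and 0.221. In males Serpina3n passed in both fits (0.00915 and 0.00623). None of the 11 tested genes of the A1 list passed, and over both sexes none reached an unadjusted limma p under 0.05. Of the 6 tested genes of the A2 list Ptgs2, which encodes an inducible cyclooxygenase also made by neurons, fell by 0.38 in females (limma adjusted p = 0.00557) and by 0.26 over both sexes (limma adjusted p = 0.00472). Without the 4 Ttr-rich libraries Ptgs2 had 0.0502 in females and 0.0247 over both sexes, and without the 3 Prl-rich ones 0.144 and 0.0536.

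S100b, whose product binds calcium and is also made by some oligodendrocytes, was close to level between genotypes. It averaged 75.4 ± 5.08 FPKM in female KO and 75.5 ± 4.08 FPKM in female WT, and 71.3 ± 3.8 FPKM in male KO and 73.7 ± 4.42 FPKM in male WT (SD, n = 5 each). The difference was -0.00 in females (95% interval -0.11 to 0.11) and -0.05 in males (95% interval -0.15 to 0.06), with limma adjusted p of 0.98 and 0.873. S100b lies on chromosome 10 from 76253853 to 76261159 and overlaps the protein-coding gene Dip2a on the opposite strand. None of the 7 tested genes of the S100 family and its receptor passed in a KO comparison. Over both sexes 1 of them had an unadjusted limma p under 0.05, against 18% of all tested genes.

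**Figure D3:**
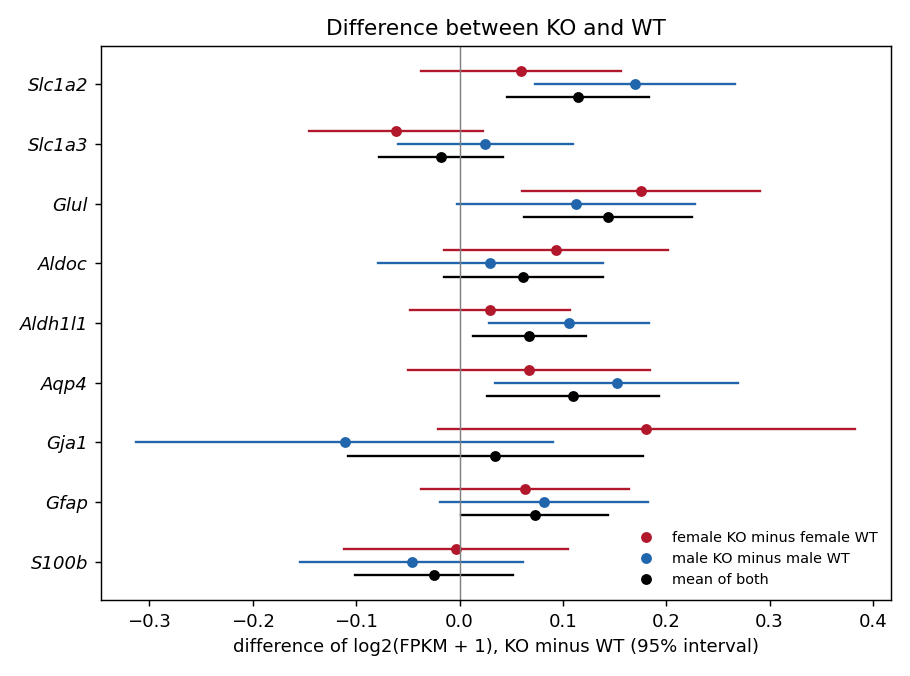
Difference of log2(FPKM + 1), KO minus WT, for the 9 genes in females, in males and as the mean of both, with points for the estimate and lines for its 95% interval. All estimates other than that of Gja1 in males lie between -0.1 and 0.2, and the unadjusted interval over both sexes excludes 0 for Slc1a2, Glul, Aldh1l1, Aqp4 and Gfap, of which Glul alone passed after adjustment.

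Side by side, 7 of the 9 genes had a difference above 0 in females, 7 in males and 7 over both sexes. The medians were 0.06, 0.08 and 0.07 in those comparisons, where the median over all tested genes was 0.01, -0.00 and 0.00. Slc1a3 and S100b were below 0 over both sexes. An unadjusted limma p under 0.05 was reached by 1 gene in females, 3 in males and 5 over both sexes, all above 0. Among all tested genes 19.5%, 8.69% and 18% reached it in those comparisons. The summed level of the 9 genes was 1132 ± 28.4 FPKM in female KO and 1056 ± 18.6 FPKM in female WT, and 1098 ± 37.0 FPKM in male KO and 1033 ± 48.2 FPKM in male WT (SD, n = 5 each). Glul makes up the largest part of that sum.

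A wider list of 41 genes with high levels in astrocytes, all of them tested, was read in the same way. Of these, 28 were above 0 in females, 30 in males and 32 over both sexes, with medians of 0.11, 0.06 and 0.06. Among all tested genes 52.0%, 49.2% and 50.9% were above 0 in those comparisons, with medians of 0.01, -0.00 and 0.00. Of the 41, 16 in females and 17 over both sexes had an unadjusted limma p under 0.05, against 19.5% and 18% of all tested genes. In females 4 rose and none fell, where 1.8% of all tested genes rose. In males none passed, with 4 at an unadjusted limma p under 0.05, against 8.69% of all tested genes. Over both sexes 6 rose and none fell, where 1.38% of all tested genes rose. Among them were Htra1, a secreted protease gene (0.17, limma adjusted p = 0.0103), Cbs, an enzyme gene of the transsulfuration pathway (0.13, 0.0427), Mt1, a metallothionein gene (0.15, 0.0454), and Dio2, whose product activates thyroid hormone (0.22, 0.0493). In females Htra1 averaged 43.7 ± 2.8 FPKM in KO and 35.4 ± 1.58 FPKM in WT, and in males 39.0 ± 1.03 FPKM in KO and 37.7 ± 2.62 FPKM in WT (SD, n = 5 each). The count over both sexes was 2 without the 4 Ttr-rich libraries and 2 without the 3 Prl-rich libraries. In females it was 2 and 0 in those fits, against 4 with all libraries. When the female effect was subtracted from the male effect, 28 of the 41 were below 0 and 13 above, and none passed. Among all tested genes 46.0% were above 0 in that comparison. An unadjusted limma p under 0.05 was reached there by 5 of the 41 and by 1320 of all 13174 tested genes. The median was -0.07 for the 41 and -0.01 for all tested genes.

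**Figure D4:**
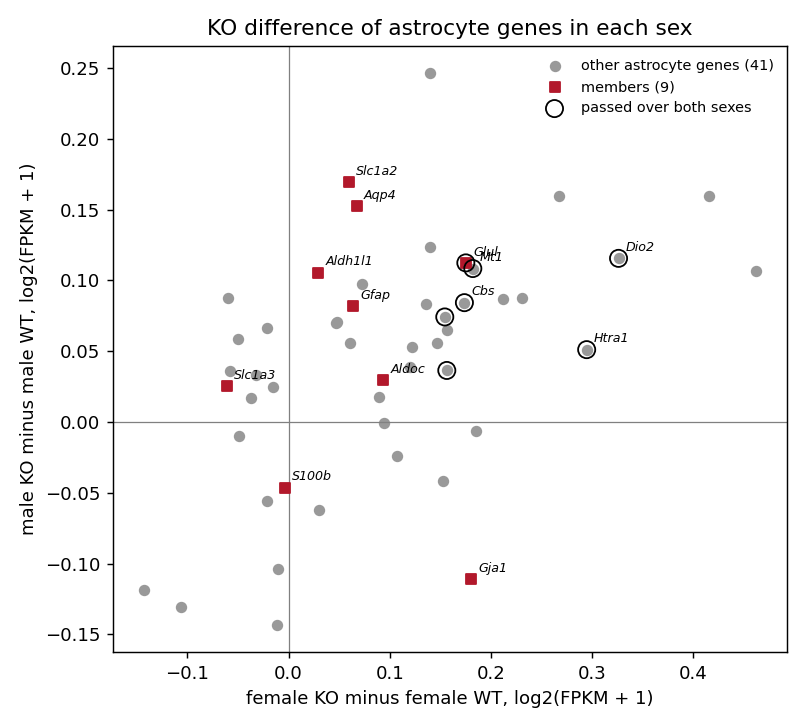
KO minus WT difference of log2(FPKM + 1) in females (horizontal axis) and in males (vertical axis) for the 9 main astrocyte genes (squares) and 41 other astrocyte genes (circles), with rings around the 7 genes that passed over both sexes and names beside those described in the text. Of the 9 genes 6 were above 0 in both sexes, and of the 41 others 23 were.

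Markers of other cell types in the tissue were read in the same libraries, and their part in the astrocyte values was not tested. Among all tested genes 52.0% were above 0 in females and 49.2% in males, while all 10 oligodendrocyte markers were below 0 in both sexes. Their summed level ran from 661 to 818 FPKM in female KO and from 605 to 1027 FPKM in female WT, and from 719 to 877 FPKM in male KO and from 795 to 987 FPKM in male WT. Over both sexes 6 of the 10 had an unadjusted limma p under 0.05, against 18% of all tested genes. Of the 13174 tested genes 242 passed as lower there. Among the 10 markers only Opalin passed, falling by 0.34 over both sexes (limma adjusted p = 0.0157). It had 0.0196 without the 4 Ttr-rich and 0.0751 without the 3 Prl-rich libraries. Of 10 microglial markers 3 were above 0 and 7 below over both sexes, where 50.9% of all tested genes were above 0. Of these 10 markers 1 passed as lower, beside 242 of all 13174 tested genes, a call that was lost without the Prl-rich libraries. Their summed level ran from 178 to 193 FPKM in female KO and from 182 to 204 FPKM in female WT, and from 170 to 180 FPKM in male KO and from 181 to 199 FPKM in male WT. Of 10 neuronal markers 8 were above 0 over both sexes and none passed, with a summed level of 1373 to 1393 FPKM in female KO and 1301 to 1361 FPKM in female WT, and of 1297 to 1387 FPKM in male KO and 1284 to 1353 FPKM in male WT. Over both sexes 3 of 8 oligodendrocyte precursor markers were above 0 and 5 below. Of 8 markers of radial glia and neural stem cells 2 were above and 6 below. Neither list held a call between KO and WT.

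Markers of vessels, membranes and adjoining tissue are given as counts above 0, with no test of the lists. Over both sexes, where 50.9% of all tested genes were above 0, so were 6 of 9 endothelial, 7 of 8 tested pericyte and smooth muscle, 7 of 8 tested ependymal, 8 of 8 tested choroid plexus, 5 of 5 erythrocyte and 5 of 6 tested meningeal fibroblast markers and both tested pituitary markers. In males, where 49.2% of all tested genes were above 0, the counts in the same order of lists were 5 of 9, 6 of 8, 3 of 8, 8 of 8, 5 of 5, 6 of 6 and 0 of 2. Among these lists the only gene that passed between KO and WT was the collagen gene Col1a1. It rose by 0.45 over both sexes (limma adjusted p = 0.00104) and passed there without the Ttr-rich (0.00426) and without the Prl-rich libraries (0.00705). The summed choroid plexus level ran from 64.7 to 1678 FPKM in female KO and from 36 to 1031 FPKM in female WT, and from 42.7 to 688 FPKM in male KO and from 47.4 to 214 FPKM in male WT. The summed erythrocyte level ran from 432 to 673 FPKM in female KO and from 310 to 562 FPKM in female WT, and from 343 to 586 FPKM in male KO and from 318 to 456 FPKM in male WT. No listed marker was at 0 in all libraries of a group.

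The series title names sex, so the 9 genes were also compared between males and females within a genotype. Among WT mice none of the 9 passed, with 0.129% of tested genes passing. In males 7 of the 9 were below 0, where 48.8% of all tested genes were above 0. An unadjusted limma p under 0.05 was reached by 1 of the 9, against 10.3% of all tested genes. The clearest difference was that of Aldh1l1, at -0.11 (95% interval -0.19 to -0.03, limma adjusted p = 0.33), with 7.3 ± 0.327 FPKM in male WT and 7.94 ± 0.179 FPKM in female WT (SD, n = 5 each). Slc1a2 and Aqp4 differed by -0.00 each, with intervals of -0.10 to 0.10 and -0.12 to 0.11.

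Among KO mice 5.38% of tested genes passed between the sexes and again none of the 9. An unadjusted limma p under 0.05 was reached by 4 of the 9, against 23.3% of all tested genes. Gja1 differed by -0.25 (95% interval -0.45 to -0.05, limma adjusted p = 0.126), with 22 ± 3.67 FPKM in male KO and 26.0 ± 1.02 FPKM in female KO (SD, n = 5 each). Glul differed by -0.13 (limma adjusted p = 0.175), with 410 ± 21.5 FPKM in male KO and 447 ± 22.6 FPKM in female KO (SD, n = 5 each). The transporters were on the other side, with 0.11 for Slc1a2 (limma adjusted p = 0.159) and 0.10 for Slc1a3 (limma adjusted p = 0.132). Slc1a2 averaged 236 ± 5.18 FPKM in male KO and 218 ± 9.2 FPKM in female KO (SD, n = 5 each). Of the 41 other astrocyte genes 34 were below 0 in this comparison and 5 passed as lower. Among all 13174 tested genes 46.9% were above 0 and 412 passed as lower. The 3 Prl-rich libraries are all female KO. In either direction 709 tested genes passed with all libraries, 71 without the 4 Ttr-rich and 23 without the 3 Prl-rich ones. Whether the 5 astrocyte calls remained in those fits is not given here.

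Within groups the 9 genes did not vary as 1 block. After each group mean was subtracted, 22 of the 36 pairs correlated above 0 and 14 below over the 20 libraries, with a median Pearson r of 0.06. No pair passed a permutation test adjusted over the 36 pairs. The transporter pair Slc1a2 and Slc1a3 had r = 0.57 (permutation p = 0.0056, adjusted 0.191) and Spearman's rho = 0.54 (permutation p = 0.0234, adjusted 0.484). Without the 2 libraries farthest from the median of Slc1a2 r was 0.40, and by group it ran from -0.33 in female KO to 0.94 in male WT. Aqp4 and Aldoc had r = -0.71 (permutation p = 0.0106, adjusted 0.191), rho = -0.56 (permutation p = 0.0401, adjusted 0.484) and r = -0.66 without the 2 farthest libraries. By group, r was 0.37 in female KO and below 0 in the other groups. Slc1a3 and Aldh1l1 had r = 0.49 (permutation p = 0.0469, adjusted 0.562) and rho = 0.51 (permutation p = 0.0421, adjusted 0.484). Without the 2 farthest libraries r was 0.38, and in female KO it was -0.78. Only the pairs of Slc1a2 with Aldh1l1 and of Aldoc with S100b kept 1 sign in all 4 groups.

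**Figure D5:**
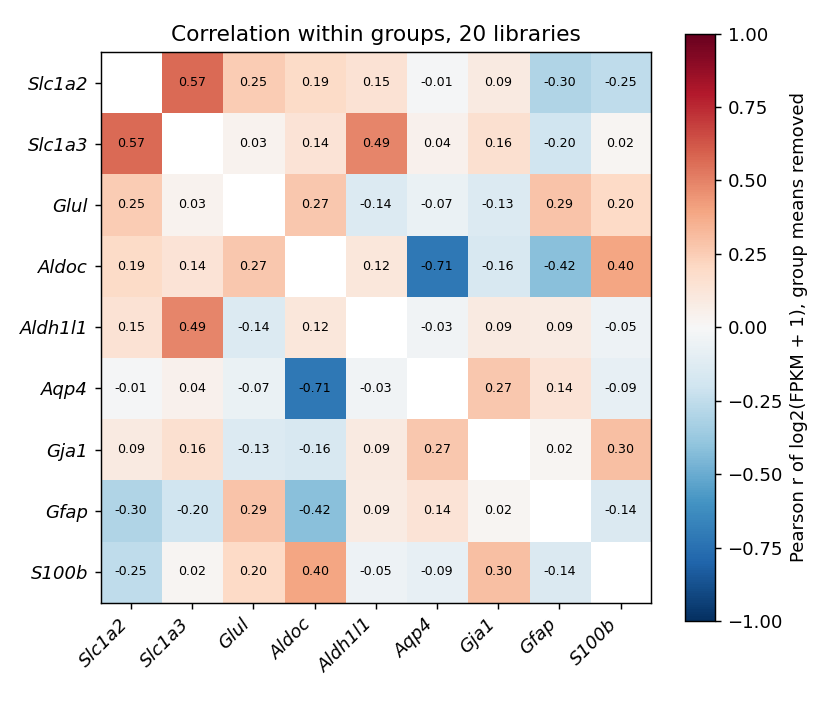
Pearson r between the 9 genes over 20 libraries, after the mean of each group was subtracted from log2(FPKM + 1), with red for values above 0 and blue for values below. Most cells are pale, and the strongest are Slc1a2 with Slc1a3 (0.57) and Aqp4 with Aldoc (-0.71).

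The genes most like each of the 9 within groups were sought over the same 20 libraries. The search covered 11394 tested genes that averaged at least 1 FPKM and had a plain symbol, without Gm numbers or Rik names. Each gene named is the highest of that many values of r, which by itself favours a high r. They are a description, and no test was run. The closest to Glul was Mmd2 (r = 0.84), to Slc1a2 Pank1 (0.83), to Slc1a3 Ids (0.80), to Aldoc Ndrg2 (0.84) and to Aldh1l1 Stt3b (0.89). For Aqp4 it was Skil (0.83), for Gja1 Prpf18 (0.84), for Gfap Lrrc10b (0.79) and for S100b Grsf1 (0.83). Ndrg2 was on the list of astrocyte genes and the others were on none of the lists used here. The third closest to Slc1a2 was Syt1 (0.77), a synaptic vesicle gene on the list of neuronal markers. All libraries share their scaling to mapped fragments, so such values hold any difference in library composition as well.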

How the data were processed

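The 9 genes and all lists were chosen with earlier results of these data known. The authors deposited FPKM per gene for each of 20 libraries. Per the submitters' processing notes FastQC, HISAT2 and StringTie were used, without versions, with the build mm10. TRIzol RNA went into an mRNA library kit, per the labels' protocols. The annotation release, trimming and strandedness were not given in the sources used here. Genes at 0.5 FPKM or more in at least 5 libraries were kept (13174 of 13256) and log2(FPKM + 1) was fitted with limma 3.58.1 (R 4.3.3, trended empirical Bayes), with a mean for each of 4 groups, for 6 comparisons. The script was tested on simulated data. This scale understates changes of low genes. Summed FPKM ran from 230631 to 244976 per library, which is no depth, and 17.5% to 20.4% was mitochondrially encoded. Pairwise correlations used 100000 permutations within groups. Named genes are the 9, Fmr1, list genes that passed in a KO comparison or had one of the 3 smallest p over both sexes, and the 3 genes most like each of the 9. Results of some list genes are left out here. Overlapping gene models are from GENCODE M21. Settings varied were scaling, variance estimation, filter, pseudocount, weights, replicate block, GC trend, covariates and libraries left out.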

Additional observations from a re-analysis of the deposited data

Results flagged for a closer look

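In 4 of 36 sets of 5 libraries (9 genes by 4 groups), 1 library lay far from the rest, with a gap to its nearest neighbour above 0.71 of the range of its group (Dixon's critical value for 5). Chance gives about 1 in 20. Slc1a2 was lowest in male KO replicate 5, at 227 FPKM, with a gap of 0.745 of the range. Slc1a3 was highest in female WT replicate 5, at 79.9 FPKM, with a gap of 0.749. Aldh1l1 was highest in the same library, at 8.25 FPKM, with a gap of 0.73. Glul was lowest in male WT replicate 3, at 323 FPKM, with a gap of 0.791, and the difference over both sexes without that library is within the range given for single libraries left out.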

How the results depend on the processing

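The KO difference of Glul over both sexes stayed above 0 in every fit run, but its call (adjusted p = 0.0493) was lost with the replicate block (0.14, adjusted p = 0.0758), GC trend removed (0.14, 0.0562), without the 4 Ttr-rich libraries (0.15, 0.121), without the 3 Prl-rich libraries (0.12, 0.258), with Ttr and Prl as covariates (0.16, 0.0814) and without mitochondrially encoded genes (0.14, 0.0505); the cause was not tested. The number of the 9 genes that passed over both sexes was 0 in these fits, except with the GC trend removed, where Slc1a2 passed (0.13). With single libraries left out it ran from 0 to 2 (Glul 0.12 to 0.16, Slc1a2 0.10 to 0.13), and in females from 0 to 1 (Glul 0.15 to 0.20). Replicate numbers do not pair the libraries (same-numbered correlations of deviations from -0.105 to 0.0651), so the block is an arithmetic alternative; with it, 309 genes passed over both sexes and 320 in females, against 424 and 438.

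Other astrocyte genes that rose in females numbered 7 with library weights, 2 with the GC trend removed, 2 without Ttr-rich and 0 without Prl-rich libraries, 1 with covariates, 1 with only the compared groups, and 2 to 6 with single libraries left out. Over both sexes they numbered 3 with the GC trend removed, 2 without Ttr-rich and 2 without Prl-rich libraries, 1 with covariates, 3 without mitochondrial genes and 2 to 6 with single libraries left out. These counts, and the values of list genes without Ttr-rich or Prl-rich libraries, were added after the data were seen.

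No value that changed sign had passed. In females these were Aldh1l1 with the GC trend removed (-0.0147) and S100b with weights (0.0073) or single libraries left out (-0.0293 to 0.0232). Over both sexes it was Gja1 with covariates (-0.0083) or single libraries left out (-0.0041 to 0.067). For Gfap the difference between the KO effects of males and females gave -0.0561 without Ttr-rich libraries and -0.0093 to 0.0513 with single libraries left out. Between male and female WT it was Slc1a2 with weights (0.0281) or covariates (0.0037), and with single libraries left out Slc1a2 (-0.0331 to 0.036), Slc1a3 (-0.0006 to 0.0462), Gfap (-0.0561 to 0.0038), Aqp4 (-0.0423 to 0.0324) and Gja1 (-0.0196 to 0.0958). Between male and female KO it was Gfap with upper-quartile rescaling (0.0065), GC trend removed (0.0678), without Prl-rich libraries (0.0519), covariates (0.0181), no mitochondrial genes (0.0023) and single libraries left out (-0.0324 to 0.0157), and Aldh1l1 with the GC trend removed (0.0297) or covariates (0.0017). Over all genes, calls ran from 8 to 554 in females, 3 to 12 in males and 84 to 481 over both sexes under the alternatives, and from 176 to 525, 6 to 11 and 273 to 449 with single libraries left out. Interaction calls ran from 0 to 8, male against female WT from 9 to 20 and male against female KO from 23 to 1023. Depth is unknown, which limits what can be said of low genes.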
